A study of Ovis aries with 6 samples.

Results

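The genes described here write, remove and read N6-methyladenosine (m6A), a methyl mark on adenosines inside mRNA. They were chosen by name, as the rows of the count table named METTL3, METTL14, WTAP, FTO, ALKBH5, YTHDF1, YTHDF2, YTHDF3, YTHDC1 or YTHDC2. Of these 10 symbols, 9 were found among the 23144 genes of the table, and no row was named WTAP. Longissimus dorsi muscle was taken from Small Tail Han (STH) sheep and from Qianhua Mutton Merino (QHMM), all females aged 1 year from a shared environment. There were 3 animals per breed with 1 library each. The muscle was snap-frozen, and poly(A)-containing RNA was made into libraries with the Ion Total RNA-Seq Kit v2 and sequenced on an Ion Proton instrument. For QHMM replicates 1 to 3, the reads counted on genes came to 14334544, 12980936 and 12382244. For STH they came to 13107349, 10982191 and 13546561, in the same order, which is kept throughout.

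The mark is placed in the nucleus by a complex whose catalytic subunit is METTL3. METTL14 holds the RNA substrate, and WTAP brings the pair to nuclear speckles. FTO and ALKBH5 are iron- and oxoglutarate-dependent enzymes that take the methyl group off, and proteins with a YTH domain bind the marked RNA and affect its splicing, export, translation and decay. In skeletal muscle, the pathway has been studied mainly in myoblast differentiation and muscle stem cells.

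Before the genes are described, the state of the libraries is given. A principal component analysis separated the breeds on its first axis (44.1% of the variance). Along the second axis (19.1%), the other 4 libraries had scores from 11.8 to 25.0, whereas QHMM replicate 2 scored -31.6 and STH replicate 3 scored -37.5. These 2 libraries also had the lowest TMM factors, 0.852 and 0.853, where the factors of the others were between 1.01 and 1.20. Among muscle fibre markers, ACTA1 was the most abundant with a mean of 54473 RPKM, and 7 of the 8 markers with a row had reads. The fast troponin gene TNNT3 was listed at 0 in all 6 libraries, and MYH1 and MYH2 were not analysed here. The summed RPKM of the fibre markers was 103155, 112073 and 99129 in QHMM and 70351, 95155 and 114303 in STH, so the breeds overlapped.

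In STH vs. QHMM, the writer METTL3 was up-regulated, and it was the only one of the 9 members to be called by edgeR. A gene was called when its FDR over all 12506 tested genes was below 0.05 and its fold change above 1.5. By this rule 432 genes (3.45%) were called, 203 (1.62%) up-regulated and 229 (1.83%) down-regulated. Both the total and the balance depended on the libraries and the scaling. edgeR called 131, 208 and 150 genes without QHMM replicates 1, 2 and 3 in this order. It called 535, 183 and 329 without STH replicates 1, 2 and 3. With library totals only, 158 genes were up-regulated and 92 down-regulated, and limma-trend on log2(RPKM + 1) gave 212 and 134. All 9 members passed the filter for low counts. The breeds did not overlap in normalized counts for 3 members, METTL3 and METTL14 on the higher side in STH and ALKBH5 on the lower side. Of all tested genes, 13.0% lay apart with STH higher and 11.7% with STH lower. The median log2 fold change was 0.21 over the members and 0.02 over all tested genes. That of the members depended on single libraries, at 0.03 without STH replicate 2, 0.09 without QHMM replicate 2, 0.32 without QHMM replicate 3 and 0.34 without STH replicate 3. It was 0.21 without QHMM replicate 1 and 0.20 without STH replicate 1. With library totals only it was 0.34, beside 0.14 for all genes. These values come from whole muscle, in which fewer cells of a type and less RNA per cell cannot be told apart.

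METTL3, the methyltransferase itself, had 184, 168 and 149 reads in the QHMM animals and 345, 471 and 330 reads in the STH animals. TMM normalization brought these to 164, 197 and 151 for QHMM and to 285, 503 and 370 for STH. Every STH library lay above every QHMM library, and STH replicate 2 was the highest of all. The mean rose from 171 ± 23.4 (SD, n = 3) to 386 ± 110.2 normalized counts (SD, n = 3), a log2 fold change of 1.18 (SE 0.26, 95% interval 0.60 to 1.75, edgeR FDR = 0.039). An exact two-sided permutation test on the 6 values gave p = 0.10, the smallest that 3 animals against 3 can give. The call was lost in 5 of the 6 edgeR fits that left out 1 library. Its FDR was 0.115, 0.078 and 0.125 in the fits that left out a QHMM animal (replicate 1, 2 and 3 in this order), 0.123 without STH replicate 2, and 0.0653 without STH replicate 3, while it was 0.0214 without STH replicate 1. Without both QHMM replicate 2 and STH replicate 3, the edgeR FDR was 0.157 at a log2 fold change of 1.31.

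**Figure D1:**
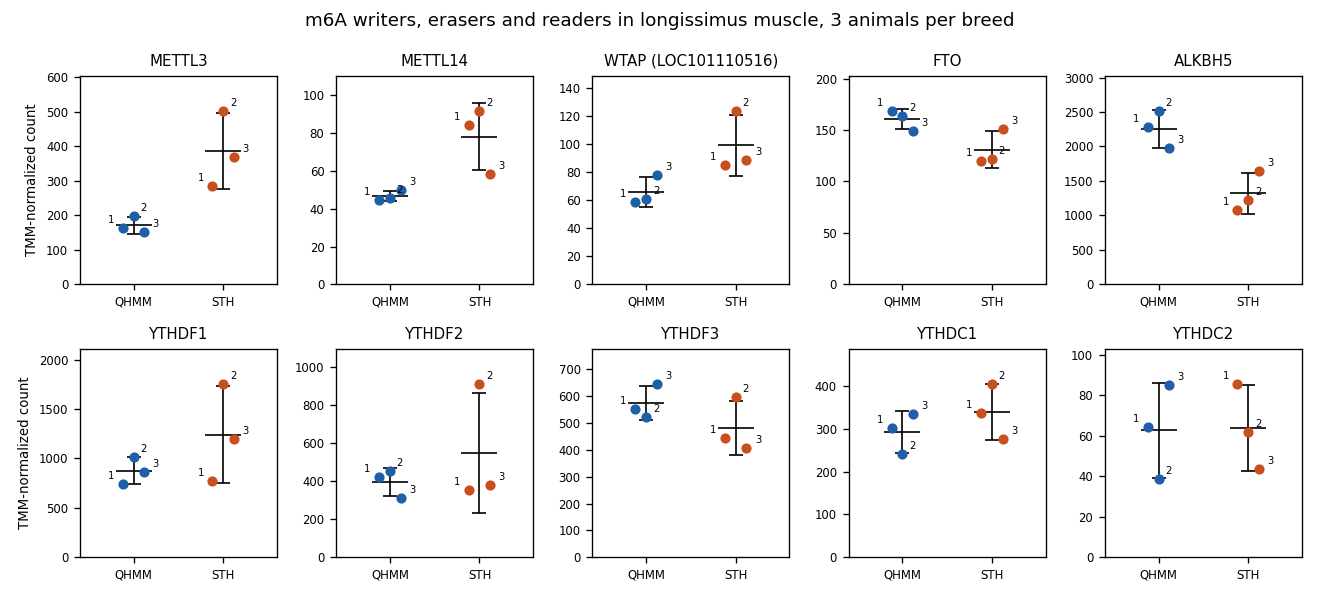
TMM-normalized counts of each gene in the 6 libraries. Points are single animals with their replicate number, and the bar and whiskers are the mean and SD of 3 animals; the METTL3 points lie from 151 to 197 in QHMM and from 285 to 503 in STH, and those of ALKBH5 from 1974 to 2518 in QHMM and from 1083 to 1647 in STH.

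METTL14, the RNA-binding partner of METTL3, was a low gene, with 50, 39 and 49 reads in QHMM and 102, 86 and 52 in STH. In normalized counts the QHMM animals had 44.6, 45.7 and 49.7 and the STH animals 84.2, 91.9 and 58.3. The QHMM animals were close together, and STH replicate 3 was nearer to them than to the other STH animals. The log2 fold change of 0.74 (SE 0.29, 95% interval 0.11 to 1.38) did not pass the threshold (edgeR FDR = 0.188, unadjusted p = 0.026). With 1 library left out, its unadjusted edgeR p was below 0.05 only without QHMM replicate 3 and without STH replicate 3. Under DESeq2, a block for the replicate number or limma-trend on RPKM, METTL14 did not reach an unadjusted p below 0.05 with all 6 libraries. On the RPKM scale the breeds overlapped, since QHMM replicate 3 was at 1.48 and STH replicate 3 at 1.44.

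For WTAP, the adaptor of the complex, the row LOC101110516 carries the RefSeq gene ID of WTAP, and the deposited annotation gives WTAP as its best matching symbol. It was kept apart from the 9 members. It had 66, 52 and 77 reads in QHMM and 103, 116 and 79 in STH, or 58.9, 60.9 and 78.2 against 85.0, 123.9 and 88.5 normalized counts. The STH libraries were all higher in normalized counts, but on the RPKM scale QHMM replicate 3 (3.72) lay above STH replicate 3 (3.49). Its log2 fold change was 0.59 (SE 0.28, 95% interval -0.02 to 1.19, edgeR FDR = 0.279), and 0.38 without STH replicate 2. There are 4 rows described as WTAP-like, this one included. Only unique mapped reads were kept, so reads shared by such copies could be lost, and its values are uncertain. In RefSeq, LOC101116348 is a pseudogene, and LOC101110767 and LOC101105993 are not listed. The most abundant of them, LOC101110767, had a log2 fold change of 0.15 (SE 0.27, edgeR FDR = 0.819). The 4 rows together had 192, 178 and 206 normalized counts in the QHMM animals and 209, 330.1 and 207 in the STH animals, and STH replicate 2 stood out. This sum would not bring back reads lost in mapping.

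Of the erasers, ALKBH5 was far more abundant than FTO and lower in every STH library than in any QHMM library. ALKBH5 had 2553, 2151 and 1945 reads in QHMM and 1312, 1151 and 1470 in STH, which gave 2279, 2518 and 1974 against 1083, 1229.7 and 1647 normalized counts. The gap between the breeds was also present on the RPKM scale, with 74.5, 69.3 and 65.7 in QHMM and 41.9, 43.8 and 45.4 in STH. The log2 fold change was -0.77 (SE 0.24, 95% interval -1.30 to -0.25), with an edgeR FDR of 0.105 that missed the threshold (unadjusted p = 0.00784). DESeq2, which called 7.48% of its 12866 genes, gave ALKBH5 an FDR of 0.0329 at a log2 fold change of -0.79, and over all alternatives its FDR ranged from 0.0329 to 0.27. The exact permutation p was 0.10.

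FTO had 189, 140 and 147 reads in QHMM and 145, 114 and 135 in STH. In normalized counts it was at 169, 164 and 149 in QHMM and at 119.6, 122 and 151 in STH. The breeds overlapped through STH replicate 3, which lay just above QHMM replicate 3. Its log2 fold change was -0.30 (SE 0.23, 95% interval -0.80 to 0.21, edgeR FDR = 0.53).

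**Figure D2:**
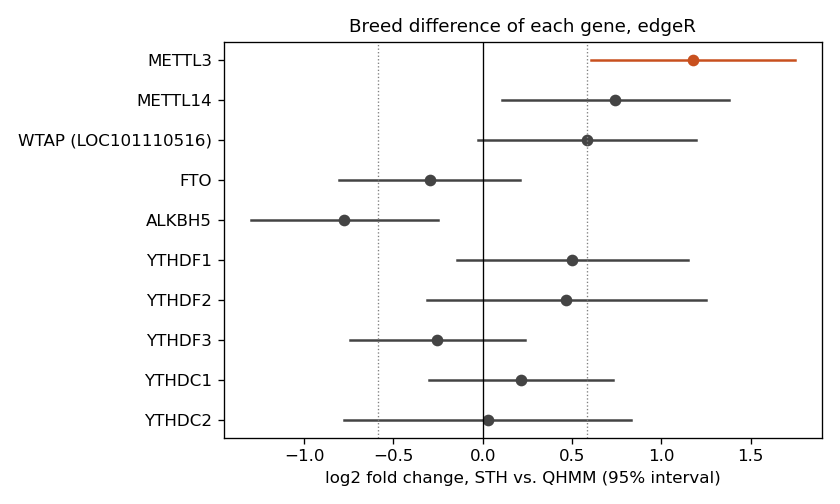
Log2 fold change of each gene in STH vs. QHMM from edgeR, with the 95% interval as a line. Dotted lines mark the minimum fold change of 1.5 in either direction; METTL3, in orange, is the called gene at 1.18, and the interval of ALKBH5 reaches from -1.30 to -0.25.

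Of the 5 readers, 0 were called by edgeR or DESeq2 and 0 had an unadjusted p below 0.05 with all 6 libraries, with edgeR FDR values from 0.385 to 0.976. YTHDF1, a cytoplasmic reader linked to translation, was at 745, 1014 and 867 normalized counts in QHMM and at 775, 1755 and 1193 in STH. YTHDF2, which brings marked RNA to deadenylation and decay, was at 422, 454 and 313 in QHMM and at 353, 915 and 379 in STH. In both genes STH replicate 2 was the highest library, and in YTHDF2 the other STH libraries lay within the QHMM range. The log2 fold change of YTHDF1 was 0.50 (SE 0.29, 95% interval -0.14 to 1.15), and without STH replicate 2 its edgeR estimate was 0.15. Without STH replicate 1 the estimate was 0.74, with an unadjusted edgeR p below 0.05 and an FDR of 0.156. That of YTHDF2 was 0.47 (SE 0.35, 95% interval -0.31 to 1.25), and it turned to -0.13 without STH replicate 2. On the RPKM scale, YTHDF1 was at 24.7, 28.3 and 29.2 in QHMM and at 30.4, 63.4 and 33.3 in STH. The breeds did not overlap there, but the nearest values, 29.2 and 30.4, lay close together. In normalized counts they overlapped. On the RPKM scale all genes also leaned higher in STH, with a median log2 fold change of 0.12 in limma-trend on log2(RPKM + 1). The share of all genes apart on that scale was not counted.

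YTHDF3, the other cytoplasmic reader of the family, was at 554, 522 and 647 normalized counts in QHMM and at 445, 596 and 406 in STH. Its log2 fold change was -0.25 (SE 0.22, edgeR FDR = 0.582), with -0.45 without STH replicate 2, -0.14 without STH replicate 3 and -0.16 without QHMM replicate 3. The nuclear reader YTHDC1, which acts in splicing and export, was at 302, 240.0 and 335 in QHMM and at 337, 405 and 276 in STH (log2 fold change 0.21, SE 0.23, edgeR FDR = 0.668). The estimate for YTHDC1 was 0.05 without STH replicate 2, 0.09 without QHMM replicate 2, 0.32 without QHMM replicate 3 and 0.34 without STH replicate 3. YTHDC2, an RNA helicase known for its role in meiosis, was at 64.3, 38.6 and 85.3 in QHMM and at 85.8, 62.0 and 43.7 in STH. In these 3 genes the breeds overlapped, and the YTHDC2 values covered nearly the same range in both. The log2 fold change of YTHDC2 was 0.03 (SE 0.36, 95% interval -0.78 to 0.83), and with 1 library left out it lay between -0.27 and 0.31.

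STH replicate 2 was the highest library for 5 of the 9 members and for 22.8% of all tested genes. Within a breed, the median SD of log2 values was 0.19 over the members in QHMM and 0.34 in STH, beside 0.29 and 0.34 over all tested genes.

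Levels of different genes were compared per length, as RPKM. The order of the means over 6 libraries was ALKBH5 (56.8), YTHDF1 (34.9), YTHDF2 (14.8), METTL3 (10.9), YTHDF3 (8.34), YTHDC1 (8.29), FTO (7.17), METTL14 (1.87) and YTHDC2 (1.18). ALKBH5 stood at the 95.4th percentile of all genes by mean RPKM and YTHDC2 at the 53.6th, a 48.1-fold range. Of the 8 pairs of neighbours in this order, FTO and METTL14 were the only pair whose libraries did not overlap. YTHDF1 was above YTHDF2 in all 6 libraries although their ranges overlapped, and ALKBH5 was above YTHDF1 in 5, the exception being STH replicate 2. From METTL3 down to FTO, each gene exceeded the next in 3 of 6 libraries. The place of METTL3 in this order depended on the breed, since it was at 6.40, 6.45 and 6.0 RPKM in QHMM and at 13.1, 21.4 and 12.1 RPKM in STH. In QHMM, METTL3 was below YTHDF3 in each library, and all its values were below those of FTO, the lowest of which was 6.90 RPKM. In STH, all its values were above those of YTHDF3, YTHDC1 and FTO, whose highest values were 10.3, 11.5 and 7.07 RPKM.

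**Figure D3:**
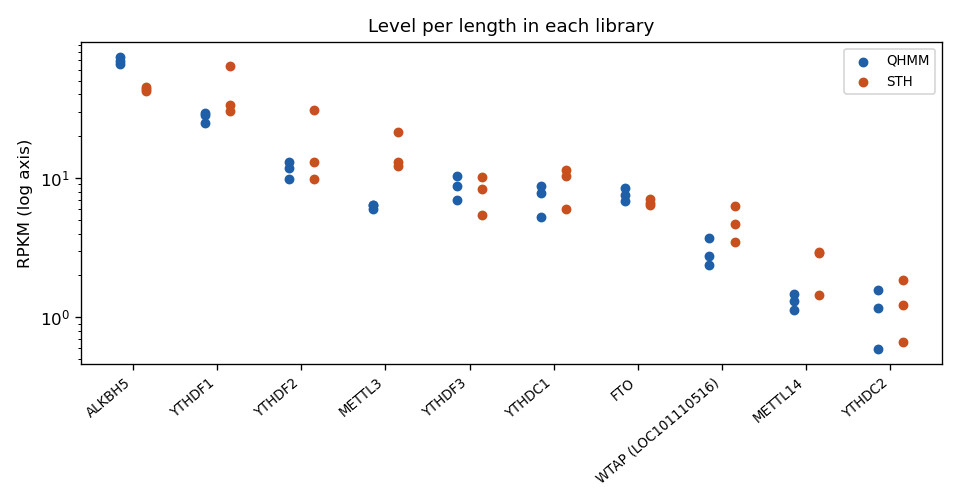
RPKM of each gene in the 6 libraries on a log axis, in the order of the mean level. Points are single animals; ALKBH5 lies from 65.7 to 74.5 in QHMM and from 41.9 to 45.4 in STH, and METTL3 from 6.0 to 6.45 and from 12.1 to 21.4.

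Ratios within a library set writers beside erasers. The log2 ratio of METTL3 to ALKBH5 RPKM was -3.54, -3.42 and -3.45 in QHMM and -1.67, -1.03 and -1.90 in STH. ALKBH5 was thus the more abundant gene in every library. The ratio was higher in all STH animals, which follows from the RPKM values above and adds no further result. In these values METTL3 was higher and ALKBH5 lower in every STH library. The log2 ratio of FTO to ALKBH5 was -3.14, -3.33 and -3.11 in QHMM and -2.56, -2.72 and -2.83 in STH, also without overlap. Of these genes, ALKBH5 lay apart between the breeds in RPKM, whereas FTO overlapped. METTL3 exceeded METTL14 in every library, by log2 ratios of 2.29, 2.52 and 2.02 in QHMM and 2.17, 2.87 and 3.08 in STH, which overlapped. Against the WTAP row, the METTL3 log2 ratio was 1.22, 1.43 and 0.69 in QHMM and 1.48, 1.76 and 1.80 in STH. These ratios are descriptions without a test.

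Among the cytoplasmic readers, YTHDF1 held the largest share of the summed YTHDF RPKM in every library, 53.0%, 60.1% and 59.1% in QHMM and 58.8%, 60.6% and 68.5% in STH. YTHDF2 held 19.95% to 28.2% in QHMM and 20.4% to 29.6% in STH, and YTHDF3 14.7% to 21.0% and 9.81% to 16.1%. All 3 shares overlapped between the breeds. The sum itself was 46.5, 47.1 and 49.5 RPKM in QHMM and 51.6, 105.0 and 48.6 in STH, so that STH replicate 2 alone stood far above the others.

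By their profile over the 6 libraries, the tested genes nearest to METTL3 were PA2G4, a growth-regulated RNA-binding protein, FTSJ3, a methyltransferase of ribosomal RNA, and DDX27, an RNA helicase, at Euclidean distances of 0.24, 0.24 and 0.25 on the log2 scale. Of these, FTSJ3 (log2 fold change 1.17, edgeR FDR = 0.0438) and DDX27 (1.19, edgeR FDR = 0.0213) were called and PA2G4 was not (0.98, edgeR FDR = 0.0512). The call held in 1 of the 6 fits that left out a library for FTSJ3 (without STH replicate 1) and in 2 for DDX27 (without STH replicate 1 or 3), with an FDR of up to 0.139 and 0.0869. Nearest to METTL14 were HNRPDL, DIS3 and HNRNPU at 0.23, 0.24 and 0.26. Nearest to ALKBH5 were PIK3R6, GINS3 and SERF2 at 0.15, 0.19 and 0.19. None of the 6 neighbours in profile of METTL14 and ALKBH5 was called by edgeR, with FDR values from 0.102 to 0.383. Genes with a profile like that of a member share its breed difference by construction.

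The wider pathway, other METTL genes and genes near FTO were followed in 9 lists with 78 matched genes. Of these, 71 were tested. By edgeR, 1 was up-regulated and 3 were down-regulated, beside background shares of 1.62% and 1.83%. The up-regulated gene and 2 of the down-regulated ones came from the other METTL genes, which are described below. An unadjusted edgeR p below 0.05 was found in 6 genes with higher and 3 with lower values in STH, where 9.43% and 9.72% of all tested genes had one, and the median log2 fold change of the lists was 0.15 against 0.02 for all genes. Of the 5 partners in the writer complex, none was called by edgeR or DESeq2 and none had an unadjusted p below 0.05. Their median log2 fold change was 0.38, with the most abundant, RBM15, at 9.58 RPKM and -0.11 (edgeR FDR = 0.846) and the largest difference in ZC3H13, 0.48 (edgeR FDR = 0.322). Among other RNA adenosine methyltransferases and their partners, none of 5 tested genes was called by edgeR or DESeq2 and 0 had an unadjusted p below 0.05. TRMT112, the most abundant at 24.9 RPKM, had a log2 fold change of 0.15, and ZCCHC4, a methyltransferase of ribosomal RNA, one of -0.65 (edgeR FDR = 0.362). Their median was 0.15.

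Of all tested genes, 9.43% had an unadjusted edgeR p below 0.05 and higher values in STH. Among 12 tested RNA-binding proteins associated with m6A, 3 had this and 0 had such a p with lower values. The 3 were RBMX (log2 fold change 0.72, edgeR FDR = 0.127), EIF3A (0.64, edgeR FDR = 0.229) and EIF3B (0.68, edgeR FDR = 0.119). None of the 12 was called by edgeR or DESeq2. The most abundant was FXR2 at 62.7 RPKM, with a log2 fold change of 0.13, and the largest difference was that of IGF2BP2, 0.77 (edgeR FDR = 0.272). IGF2BP1 was at 0 in all libraries. The list median was 0.36. None of the 3 partners of YTHDC1 in splicing and export was called by edgeR or DESeq2, with 0 at an unadjusted p below 0.05 and a median of -0.25. SRSF3 was their most abundant gene at 79.4 RPKM, and NXF1 differed most, at -0.40 (edgeR FDR = 0.335).

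The decay machinery reached through YTHDF2 and YTHDC2 had 14 tested genes, 0 of them called by edgeR or DESeq2, and a median of 0.18. Its 1 gene with an unadjusted edgeR p below 0.05 was POP1, a subunit of the RNase P and MRP complexes. POP1 was at 8.93, 12.9 and 8.12 normalized counts in QHMM and at 23.9, 35.3 and 26.9 in STH, without overlap (log2 fold change 1.52, SE 0.42, edgeR FDR = 0.0787). The most abundant gene of that list, UPF1, was at 23.1 RPKM with a log2 fold change of 0.24. In the AlkB family besides FTO and ALKBH5, 0 of 7 genes were called by edgeR or DESeq2 and 0 had an unadjusted p below 0.05, with a median of 0.22. ALKBH7, a mitochondrial member, was the most abundant at 26.8 RPKM and had a log2 fold change of -0.49, and ALKBH2, a DNA repair enzyme, had the largest difference, 0.63 (edgeR FDR = 0.282).

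Among 5 tested genes of methyl donor supply, AHCYL2, a relative of the enzyme that clears S-adenosylhomocysteine, was down-regulated. AHCYL2 was at 1247, 1723 and 1399.8 normalized counts in QHMM and at 816, 487 and 649 in STH, a log2 fold change of -1.16 (SE 0.25, edgeR FDR = 0.0356). It was also the most abundant of the list at 31.2 RPKM. Its call held in 1 of the 6 fits that left out a library, the one without STH replicate 1, and its edgeR FDR in these fits ranged from 0.0244 to 0.106. The list median was 0.06.

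Among the METTL genes outside the writers, METTL5 and METTL16 belong to the list of RNA adenosine methyltransferases above. Of the other 17 tested genes, 3 were called by edgeR, beside 3.45% of all tested genes. None of these 3 methylates adenosine in mRNA. METTL1, which makes 7-methylguanosine in tRNA, was up-regulated, at 25.9, 58.5 and 31.5 normalized counts in QHMM and 80.9, 273.5 and 154.6 in STH (log2 fold change 2.14, SE 0.46, edgeR FDR = 0.0359). STH replicate 2 was again the highest library. Its call held only in the fits without QHMM replicate 2 and without STH replicate 1, with an edgeR FDR of up to 0.116 in the others. METTL7B, a thiol methyltransferase, was down-regulated, from 697, 519.8 and 719.7 to 68.5, 5.34 and 54.9 normalized counts (log2 fold change -3.89, SE 0.58, edgeR FDR = 0.0108). METTL11B, a protein N-terminal methyltransferase, was down-regulated from 449, 344 and 455 to 123, 34.2 and 94.1 normalized counts (log2 fold change -2.30, SE 0.39, edgeR FDR = 0.0143). In both genes STH replicate 2 was the lowest library, and both were called in all 6 fits that left out 1 library. Without both QHMM replicate 2 and STH replicate 3, neither was called (edgeR FDR = 0.1003 and 0.114). METTL22 had the highest level of these 17 genes at 25.4 RPKM and a log2 fold change of 0.01, and the median was -0.02.

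Genes beside the members were examined because the use of strand in counting was not given. On the RefSeq assembly, none of the 17 neighbouring protein-coding genes of the 9 members that had a row overlapped a member's gene body. TOX4, next to METTL3, was at 363, 486 and 376 normalized counts in QHMM and at 399, 452 and 430.2 in STH (log2 fold change 0.07, SE 0.21, edgeR FDR = 0.901). Of the 6 tested ones, 1 was called by edgeR, beside 3.45% of all tested genes. It was NREP next to YTHDC2, which is named here after its values were seen. NREP was at 1901, 2369 and 3107 normalized counts in QHMM and at 224, 203 and 485 in STH (log2 fold change -3.02, SE 0.37, edgeR FDR = 0.0045), while YTHDC2 overlapped between the breeds. Of RPGRIP1L, IRX3 and IRX5, the genes near FTO, none was called by edgeR or DESeq2, with a median of 0.48. IRX3, the most abundant of them at 0.82 RPKM, had 7, 3 and 12 reads in QHMM and 26, 43 and 8 in STH (log2 fold change 1.77, edgeR FDR = 0.173) and was the 1 gene of the 3 with an unadjusted p below 0.05.

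Markers of fibre type and of other cells were compared between the breeds as well. The slow myosin gene OMYHCS (log2 fold change -1.34, edgeR FDR = 0.0251) and slow troponin TNNT1 (-1.37, edgeR FDR = 0.024) were down-regulated in STH. Myoglobin (MB, row LOC780509) had the largest difference of the fibre markers, from 62505, 94565 and 75859 normalized counts in QHMM to 16962, 20418 and 46553 in STH. The breeds did not overlap, but its log2 fold change of -1.47 (SE 0.39) missed the threshold (edgeR FDR = 0.0683). Of the 7 tested fibre markers, edgeR called 2 and DESeq2 called 3, beside 3.45% and 7.48% of all genes in these fits. CKM (0.30), DES (0.36) and TTN (0.12) had higher estimates in STH and ACTA1 a lower one (-0.33), all uncalled by edgeR. The median log2 fold change of the fibre markers was -0.33. OMYHCS and TNNT1 each kept the call in 2 of the 6 fits that left out a library, those without STH replicate 1 or 3, with an FDR of up to 0.111 and 0.0871. Without both QHMM replicate 2 and STH replicate 3, neither was called (edgeR FDR = 0.0962 and 0.0977). Of 5 adipocyte markers, 4 were down-regulated by edgeR, and DESeq2 also called 4. Of all genes, edgeR found 1.83% down-regulated and DESeq2 called 7.48%. Those called by edgeR were ADIPOQ (-2.13, edgeR FDR = 0.0143), PLIN1 (-2.37, edgeR FDR = 0.0186), CIDEC (-2.44, edgeR FDR = 0.0438) and LEP, which had 84, 11 and 24 reads in QHMM and 5, 0 and 1 in STH (edgeR FDR = 0.0341). The most abundant adipocyte marker, FABP4 with a mean of 50.9 RPKM, had a log2 fold change of -0.04 (edgeR FDR = 0.98). The summed RPKM of the 5 was 276, 59.2 and 100.1 in QHMM and 128.5, 55.4 and 40.3 in STH, and no marker of the list was at 0 throughout. With 1 library left out, ADIPOQ was called in 6 fits, PLIN1 in 5, LEP in 2 and CIDEC in 1, with FDR values of up to 0.0399, 0.0513, 0.107 and 0.128. None of these 4 was called by edgeR without both QHMM replicate 2 and STH replicate 3, where the FDR was 0.0615, 0.104, 0.118 and 0.101 in the same order. The part of these cells and fibre types in the differences of METTL3 and ALKBH5 was not tested.

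Of the 5 fibroblast markers, 0 were called by edgeR and 2 by DESeq2, which called 7.48% of its genes. An unadjusted edgeR p below 0.05 was found in 2, COL1A1 (-1.30) and COL3A1 (-1.22), beside 9.72% of all tested genes with lower values in STH. The summed RPKM of the 5 markers was 678, 415 and 816 in the QHMM animals and 532, 269 and 325 in the STH animals. DCN was the most abundant, and the part of these markers in the results was not tested either. Endothelial (4 tested), immune (5), smooth muscle (3), Schwann cell (4) and satellite cell (1) markers had 0 genes called by edgeR or DESeq2 and 0 at an unadjusted p below 0.05. Their median log2 fold changes were -0.09, -0.24, 0.20, -0.06 and -1.44 in this order. Of the blood markers, ALAS2 was the 1 with a row, at a mean of 0.12 RPKM, and it did not pass the filter.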

How the data were processed

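Longissimus muscle from 3 QHMM and 3 STH sheep was compared as STH vs. QHMM. The authors mapped the filtered reads to the sheep genome Oar 3.1, kept unique mapped reads and deposited unnormalized counts per gene. The authors also deposited RPKM values, which scale the counts for gene length and for the sum of counts in each library. The aligner, counting program, annotation release and use of strand are not given in the sources used here. All 12 sample columns entered the analysis. Joining the tables without 25 RPKM names that had turned into dates gave 23119 genes.

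Counts were tested with edgeR 4.0.16 under R 4.3.3 (filterByExpr, TMM, quasi-likelihood F test with breed as the only term). The FDR followed Benjamini-Hochberg over 12506 tested genes. A gene was called at an FDR below 0.05 and a fold change above 1.5. EBSeq, the program of the study's methods, was not installed. The SE came from the log2 fold change and the F statistic. Normalized counts are TMM-scaled to the mean effective library size. The tests were checked on simulated counts.

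The members and gene lists were chosen with earlier results of these data known. Named were all members, every called list gene, and in each list the gene with the highest mean RPKM and the tested gene with the largest absolute log2 fold change. RNA-binding proteins associated with m6A were also named if their unadjusted edgeR p was below 0.05. For each member with an unadjusted edgeR p below 0.05, the 3 tested genes with the most similar profile over the 6 libraries were named (Euclidean distance between centred log2 CPM, prior count 2). Symbols without a row of that name were matched by an older symbol (VIRMA, CNOT9 and RIDA) or by RefSeq gene ID (assembly ARS-UI_Ramb_v3.0).

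Alternatives were DESeq2 1.42.0, upper-quartile normalization, library totals only, no filter, at least 10 counts in every library, leaving out the 20 most abundant genes, robust dispersions, a block for the replicate number, limma-trend (limma 3.58.1) on RPKM with a pseudocount of 1 or 0.1 and without filter, no minimum fold, an FDR of 0.01, and leaving out each library in turn. TMM-normalized counts per kilobase were an alternative for the order of levels. A fit without QHMM replicate 2 and STH replicate 3 was chosen after seeing the data. Tables and plots were made with Python 3.11.15, pandas 2.3.3, NumPy 2.4.6 and matplotlib 3.10.9.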

Additional observations from a re-analysis of the deposited data

How the results depend on the processing

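With all 6 libraries, 13 alternatives were tried, 6 fits left out 1 library each, and 1 added fit, chosen after seeing the data, left out QHMM replicate 2 and STH replicate 3. The 432 called genes became 962 with DESeq2, 250 with library totals only, 806 without a filter, 78 with limma-trend on log2(RPKM + 1) without a filter, 41 at an FDR of 0.01, 11 in the added fit and 131 to 535 with 1 library left out. Up-regulated genes made up 47.0% of calls, but 63.2% with library totals only, 61.3% and 61.9% with limma-trend on RPKM with a pseudocount of 1 and 0.1, and 69.2% without its filter. The median log2 fold change of all genes was then 0.14 with library totals and 0.12 and 0.14 with RPKM, but 0.04 with RPKM without the filter, against 0.02. Relative to the first 3 of these medians, METTL3 was at 1.16, 1.03 and 1.11 and ALKBH5 at -0.82, -0.78 and -0.82.

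The members called numbered 2 with DESeq2 (METTL3 and ALKBH5 at -0.79), 0 with limma-trend without a filter (METTL3 at 1.14), 0 in the added fit (METTL3 at 1.31), 0 at an FDR of 0.01, and 0 to 1 with 1 library left out (METTL3 at 0.92 to 1.34). Of the 14 called genes named in the report, 1 was also called in the added fit, NREP. At an unadjusted p below 0.05 there were 2 members in that limma-trend fit and 3 in the added edgeR fit. Fewer samples are fitted when libraries are left out, and the other causes were not tested. YTHDF2 lay between -0.13 and 0.69 with 1 library left out. YTHDC2 turned to -0.0037 with at least 10 counts in every library, to -0.02 in the added fit, and lay between -0.27 and 0.31 with 1 library left out. METTL14, FTO, YTHDF1, YTHDF3, YTHDC1 and the WTAP row kept their sign and stayed uncalled in all 18 fits each. With 1 library left out they lay between 0.59 and 0.92, -0.41 and -0.25, 0.15 and 0.74, -0.45 and -0.14, 0.05 and 0.34, and 0.38 and 0.73, in this order. With library totals only, FTO was at -0.19 and YTHDF3 at -0.12, and limma-trend on log2(RPKM + 1) gave -0.16 and -0.13. Relative to the median of all genes in these fits, FTO was at -0.335 and -0.28 and YTHDF3 at -0.27 and -0.25. The order of levels was the same with TMM-normalized counts per kilobase.

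With the replicate number as a block, 457 genes and 1 member were called (METTL3, edgeR FDR = 0.0373). Deviations of same-numbered libraries correlated at 0.226, -0.038 and -0.13, so the numbers were not taken as a pairing, and not every library correlated best with its own number. METTL14 had 39 to 102 reads per library, YTHDC2 33 to 104 and the WTAP row 52 to 116.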
